A study of Mus musculus with 9 samples.

Results

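The 9 chemokine receptors Ccr1, Ccr2, Ccr6, Ccr7, Cxcr3, Cxcr4, Cxcr6, Cx3cr1 and Xcr1 were followed in sorted cells of the mouse prostate. All probes that matched a receptor by RefSeq accession, symbol or synonym were taken. This gave 13 probes among 41174 on the array and 9 genes among 27669 gene or transcript names. Primary cells came from prostates of BL6 mice, were stained with fluorescent antibodies and were separated by flow cytometry. The marker-positive fraction, labelled as stem cells, was Lin-CD44+CD133+Sca-1+CD117+ (3 arrays), and the marker-negative fraction, labelled as non-stem cells, was Lin-CD44-CD133-Sca-1-CD117- (6 arrays). Lin- stands for cells without the lineage markers of the antibody panel, whose antibodies the labels do not name, and no treatment other than the sort is labelled. RNA extraction used a PicoPure kit, amplification a MessageAmp II kit and labelling a Quick Amp kit, with the sorted cells' RNA in Cy5 and a universal mouse reference (Stratagene) in Cy3 of each array. Nothing in the labels ties the arrays to separate animals, and p-values then measure only the spread between these samples, which may be technical. Each sample was a bulk fraction, in which fewer cells of a type and less RNA per cell cannot be told apart.

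Chemokine receptors are membrane proteins that couple to inhibitory G proteins and steer cells along gradients of small secreted proteins, the chemokines. Their names give the spacing of the first cysteines in the chemokines they bind: CC, CXC, CX3C and XC. Most are carried by leukocytes, where they direct the recruitment of monocytes, lymphocytes and dendritic cells into tissues such as the prostate, while Cxcr4 is also known for holding blood stem cells in the bone marrow.

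In the files' build (mm7, NCBI35), the probes of 4 of the receptors, Cxcr6, Xcr1, Ccr1 and Ccr2, lay in that order within 297 kb of chromosome 9, and among them were the receptors with the largest positive and the largest negative difference. The 250 bases upstream of the start sites of Ccr2 and Cxcr6 are shown for comparison of these neighbours. Their differences had opposite signs, and only that of Ccr2 passed the test described below. Both sequences were taken from RefSeq in build GRCm38.p6, at chr9:124101933-124102182 (plus strand) for Ccr2 and chr9:123806227-123806476 (plus strand) for Cxcr6. Capitals mark the Runx core, TGTGGT or its reverse complement, and none appear in Ccr2.
Ccr2: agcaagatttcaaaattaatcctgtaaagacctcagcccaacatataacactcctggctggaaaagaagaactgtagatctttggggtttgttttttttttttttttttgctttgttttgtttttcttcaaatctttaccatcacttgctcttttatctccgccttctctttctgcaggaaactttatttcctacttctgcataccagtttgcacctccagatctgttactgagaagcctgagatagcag
Cxcr6: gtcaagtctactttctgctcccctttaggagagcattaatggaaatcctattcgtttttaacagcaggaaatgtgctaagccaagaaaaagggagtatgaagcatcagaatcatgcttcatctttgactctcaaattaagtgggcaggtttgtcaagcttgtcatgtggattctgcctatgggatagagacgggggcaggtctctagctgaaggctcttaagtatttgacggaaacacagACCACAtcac

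The RefSeq table matched 8 of the 9 receptors with 9 promoters, and Ccr7 was not matched. Runx factors and ETS factors act in blood cells, and their core letters were searched on both strands. The Runx core was present in 4 of the 9 promoters (Ccr1, Cx3cr1, Cxcr3 and Cxcr6) and in 14% of all 32851 promoters of this length. The letters AGGAAG, a longer form of the ETS core GGAA, were present in 2 of the 9 and in 29.5% of all. The Ccr2 and Cxcr6 promoters did not hold AGGAAG. The shorter GGAA, which both printed sequences hold, was not counted. These matches describe letters in the window and not bound sites.

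Levels are given as log2 ratios of the sample over the reference, and differences are the marker-positive mean minus the marker-negative mean. Of 28330 probes tested (19848 genes), 312 genes were higher (1.57%) and 331 lower (1.67%) in the marker-positive fraction at an adjusted p under 0.05 (limma, Benjamini-Hochberg over all probes tested). The split was 141 higher and 85 lower with median centring in place of loess, and 221 higher and 362 lower with the scanner software's processed signals. A probe was tested where the sample channel stood well above background on 3 or more arrays, and between 45.4% and 69.4% of probes did so on each array. Pairs of marker-positive arrays correlated at 0.582 to 0.923, marker-negative pairs at 0.668 to 0.901 and pairs across the groups at 0.483 to 0.729. Marker-positive array 3 correlated at 0.609 and 0.582 with marker-positive arrays 1 and 2. It correlated higher, at 0.677 and 0.676, with marker-negative arrays 4 and 6, and at 0.483 to 0.589 with the other marker-negative arrays. It also had the fewest probes above background (45.4%, beside 47.5% on marker-negative array 3). Marker-positive array 3 thus stood apart from its own fraction, so each receptor was also fitted without it. Without it 933 genes were higher and 498 lower. The arrays lay on 5 slides, and both fractions shared slides 1 and 2. Within-slide differences therefore rest on 1 marker-positive array and on 1 (slide 1) or 2 (slide 2) marker-negative arrays.

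Ccr2 was the receptor that passed the test, and it was higher in the marker-positive fraction. Among the 8 receptors with a tested probe, 1 was called higher, against 1.57% of all genes tested, and 0 were called lower, against 1.67%. At an unadjusted limma p under 0.05, 3 were higher (Ccr2, Ccr7 and Cxcr4), against 9.72% of all genes tested, and 1 was lower (Cxcr6), against 9.83%. The median difference of the 8 was 0.54, beside -0.01 over all genes tested. Marker-positive and marker-negative arrays did not overlap for 1 of the 8, Ccr2 again, against 5.14% of all genes without overlap and higher and 6.47% without overlap and lower.

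**Figure D1:**
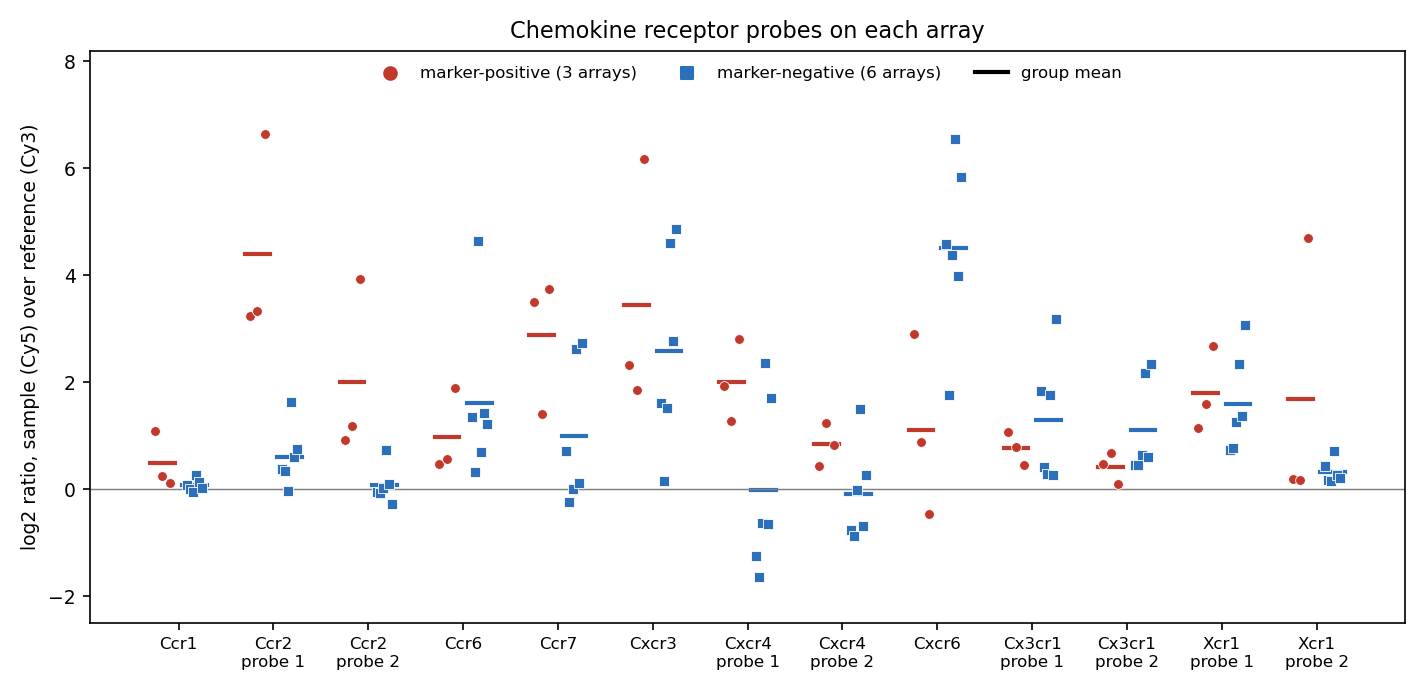
Log2 ratio of sample (Cy5) over reference (Cy3) for each chemokine receptor probe, with circles for the 3 marker-positive arrays, squares for the 6 marker-negative arrays and bars for the group means. The Ccr2 probes had all 3 marker-positive arrays above all 6 marker-negative arrays, while Cxcr6 had higher ratios in most marker-negative arrays.

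Ccr2 is the receptor for Ccl2, Ccl7 and Ccl12 and is needed for classical monocytes to leave the bone marrow. Its probe at chr9:123827135-123827194 read 3.24, 3.34 and 6.65 on the 3 marker-positive arrays. On the marker-negative arrays it read -0.04 at the lowest, 0.49 at the median and 1.62 at the highest. The lowest marker-positive array was thus above the highest marker-negative array, and marker-positive array 3 was by far the highest of all. The means were 4.41 ± 1.94 (SD, n = 3) and 0.61 ± 0.56 (SD, n = 6), a difference of 3.80 with a standard error of 0.69 and a 95% interval of 2.25 to 5.35 (limma, adjusted p = 0.0205), or 13.9-fold. Each of the 9 fits with 1 array left out called Ccr2 higher, with adjusted p-values (limma) between 0.00662 and 0.0479 and differences between 2.68 and 4.39. The smallest, 2.68, was the fit without marker-positive array 3.

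Within slides the direction was the same, with a Ccr2 difference of 2.85 on slide 1 and 2.36 on slide 2. With the slide as a fixed block the difference was 2.57 and the call was lost (limma, adjusted p = 0.0933). Ccr2 was well above background in the sample channel on all 3 marker-positive arrays and on 2 of the marker-negative arrays, but on none in the reference channel. The difference was 3.87 with no background subtraction and 4.41 with an offset of 16 in place of 50, called in both. It was 5.90 from the scanner software's processed signals, which change the background correction and the normalization together, and there the call was lost (limma, adjusted p = 0.0522).

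The other Ccr2 probe, at chr9:123827706-123827765 and named by the symbol in the file, read 0.91, 1.18 and 3.92 on the marker-positive arrays. Its marker-negative ratios ran from -0.28 to 0.73. Again no arrays overlapped and marker-positive array 3 was the highest, but the difference of 1.94 (SE 0.57, 95% interval 0.67 to 3.20) missed the threshold (limma, adjusted p = 0.0983). With both probes averaged, Ccr2 differed by 2.87 and passed (limma, adjusted p = 0.0425).

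The 3 tested genes whose centred ratios lay nearest to those of Ccr2 over the 9 arrays, among 19809 compared, were Ear3, Ear10 and Ear6, at mean absolute log2 differences of 0.206, 0.321 and 0.352. They encode eosinophil-associated ribonucleases, a family of near-identical copies whose probes may share signal. Ear10 read 3.71, 3.40 and 6.91 on the marker-positive arrays and 0.05 at the marker-negative median. Ear3 read 2.68, 2.33 and 5.91 against a marker-negative median of -0.05, and Ear6 read 2.43, 2.30 and 5.67 against 0.21. All of them had the Ccr2 profile of a high marker-positive array 3, and they were found by this likeness, so their own differences are no separate evidence. Ear3 and Ear6 were well above background on 0 marker-negative arrays and Ear10 on 1, beside 2 for Ccr2. The likeness over the marker-negative arrays was therefore largely between values near background.

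Ccr1 binds Ccl3, Ccl5, Ccl7 and Ccl9 and is carried by monocytes, neutrophils and macrophages. Its probe, at chr9:123681859-123681918, read 1.08, 0.25 and 0.11 on the marker-positive arrays and from -0.06 to 0.26 on the marker-negative arrays, with a median of 0.05. Only marker-positive array 1 stood clear of the marker-negative range, and Ccr1 was well above background on 1 array in all. It was therefore not tested, and no fold is given.

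Ccr6, the receptor for Ccl20, is known on B cells, some dendritic cells and interleukin-17 producing T cells. It read 0.47, 0.57 and 1.89 on the marker-positive arrays and, on the marker-negative arrays, 0.32 at the lowest, 1.29 at the median and 4.65 at the highest. The groups overlapped, and marker-negative array 3 was far above the rest. The difference was -0.63 (SE 0.85, 95% interval -2.54 to 1.27; limma, adjusted p = 0.748), and it was -0.89 within slide 1 and 0.07 within slide 2. Without marker-negative array 3 it was -0.02.

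Ccr7, the receptor for Ccl19 and Ccl21, guides dendritic cells and naive lymphocytes to lymph nodes. Its probe at chr11:99253592-99253652 read 3.49, 1.41 and 3.74 on the marker-positive arrays, and on the marker-negative arrays -0.25 at the lowest, 0.42 at the median and 2.73 at the highest. Marker-negative arrays 4 and 6 lay above marker-positive array 2, so the groups overlapped. The difference of 1.89 (SE 0.81, 95% interval 0.09 to 3.69, unadjusted) missed the threshold (limma, adjusted p = 0.232). It was 2.77 within slide 1 and 0.23 within slide 2.

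Cxcr4 is the receptor for Cxcl12. Its brighter probe, at chr1:128468640-128468699, read 1.93, 1.27 and 2.81 on the marker-positive arrays, and on the marker-negative arrays -1.65 at the lowest, -0.65 at the median and 2.35 at the highest. Marker-negative arrays 4 and 6, at 2.35 and 1.70, fell within the marker-positive range and the remaining marker-negative arrays lay below 0. The difference was 2.03 (SE 0.90, 95% interval 0.02 to 4.03, unadjusted), which missed the threshold over all probes (limma, adjusted p = 0.249). Within slides it was 3.18 and 0.92. The other probe, at chr1:128469220-128469279, read 0.44, 1.24 and 0.83 on the marker-positive arrays and from -0.87 to 1.51 on the marker-negative arrays, and differed by 0.93 (SE 0.52; limma, adjusted p = 0.364). Both probes differed in the same direction and overlapped between the fractions, the brighter one at marker-negative arrays 4 and 6 and the other at array 4, which lay above all 3 marker-positive arrays.

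Cxcr3 is the receptor for Cxcl9, Cxcl10 and Cxcl11 on effector T cells and NK cells. Its probe at chrX:97058936-97058995 read 2.33, 1.85 and 6.17 on the marker-positive arrays, and on the marker-negative arrays 0.16 at the lowest, 2.19 at the median and 4.87 at the highest. The groups overlapped throughout, with the high values on marker-positive array 3 and on marker-negative arrays 4 and 6. The difference was 0.86 (SE 1.23, 95% interval -1.89 to 3.60; limma, adjusted p = 0.764), and without marker-positive array 3 it was -0.50. Within slide 1 it was 0.72 and within slide 2 it was -0.54. The interval takes in differences of either sign, and the sign itself rested on that array.

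Cxcr6 is the receptor for Cxcl16 and is known on tissue-resident T cells, NK cells and NKT cells. It had the largest negative difference of the receptors. Its probe at chr9:123530288-123530347 read 2.89, 0.88 and -0.46 on the marker-positive arrays, and on the marker-negative arrays 1.77 at the lowest, 4.49 at the median and 6.54 at the highest. Marker-negative array 2 lay below marker-positive array 1, and the other 5 marker-negative arrays lay above all 3 marker-positive arrays. The difference was -3.41 (SE 1.02, 95% interval -5.70 to -1.13, unadjusted), and missed the threshold over all probes (limma, adjusted p = 0.105). It was -1.70 within slide 1 and -3.27 within slide 2. With any 1 array left out it stayed between -4.31 and -2.63 and was never called. Cxcr6 was well above background on all 6 marker-negative arrays and on 2 of the marker-positive arrays.

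Cx3cr1, the receptor for fractalkine (Cx3cl1), marks tissue macrophages, patrolling monocytes and cytotoxic lymphocytes. Its brighter probe, at chr9:119745795-119745854, read 1.06, 0.79 and 0.45 on the marker-positive arrays, and on the marker-negative arrays 0.26 at the lowest, 1.09 at the median and 3.17 at the highest. The groups overlapped, and marker-negative array 6 was the highest. The difference was -0.52 (SE 0.62, 95% interval -1.91 to 0.86; limma, adjusted p = 0.706), and it was -0.78 within slide 1 and -0.30 within slide 2. The other probe, at chr9:119747387-119747446, differed by -0.70 (SE 0.48; limma, adjusted p = 0.475), with marker-negative arrays 4 and 6 at 2.18 and 2.34 and every other array at 0.67 or less.

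Xcr1, the receptor for Xcl1, marks the dendritic cells that present antigen to CD8 T cells. Its brighter probe, at chr9:123574844-123574903, read 1.15, 1.58 and 2.67 on the marker-positive arrays, and on the marker-negative arrays 0.72 at the lowest, 1.31 at the median and 3.07 at the highest. The difference was 0.21 (SE 0.58, 95% interval -1.09 to 1.51; limma, adjusted p = 0.893), and -0.22 without marker-positive array 3. Within slides it was 0.42 and 0.03. The other probe, at chr9:123571166-123571225, read 4.70 on marker-positive array 3 and 0.71 or less on each of the other 8 arrays. It was well above background on 1 array of each fraction and was not tested. The brighter probe was well above background on all 9 arrays, so the probes of Xcr1 disagreed on detection on the other 7.

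**Figure D2:**
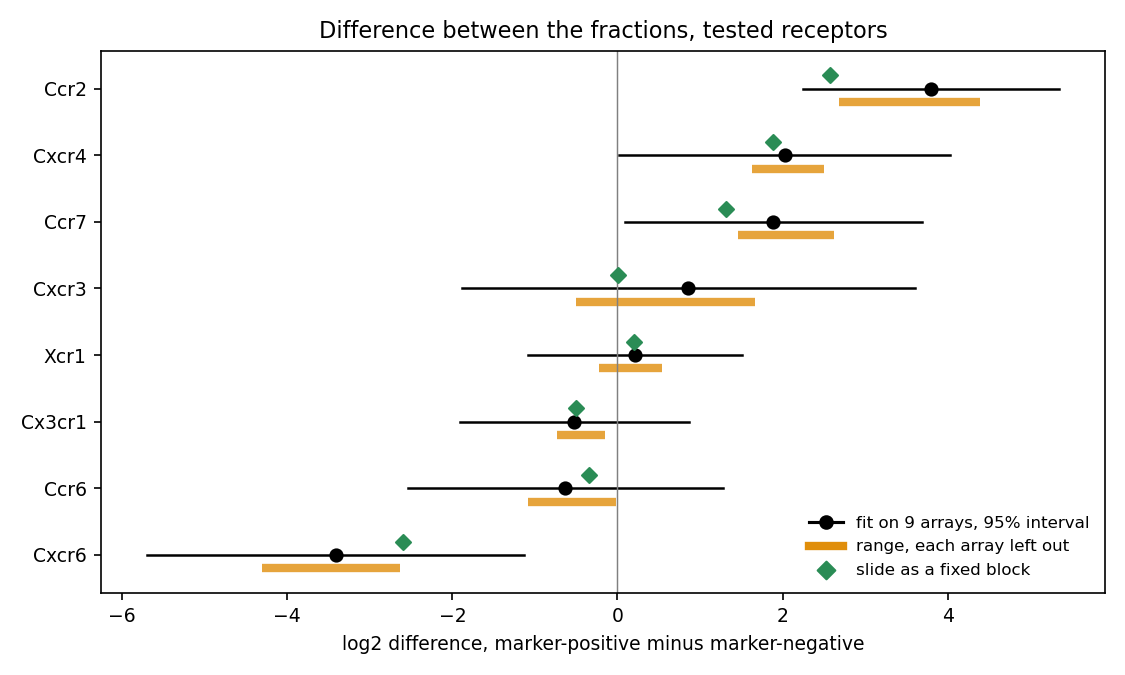
Difference between the fractions (log2, marker-positive minus marker-negative) for the 8 tested receptors, with points and black lines for the fit on 9 arrays and its 95% interval, thick bands for the range with each array left out and diamonds for the fit with the slide as a block. The unadjusted intervals of Ccr2, Ccr7 and Cxcr4 lay above 0, the latter pair barely, that of Cxcr6 lay below 0, and the Cxcr3 and Xcr1 bands crossed 0.

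Several receptors were high on the same arrays irrespective of the fraction. General leukocyte markers (Ptprc, Cd52, Coro1a, Laptm5, Cd53, Lcp1, Arhgdib and Cd48) were well above background on all 9 arrays, and their mean ratio was 2.18, 1.46 and 3.38 on the marker-positive arrays. On the marker-negative arrays it was 1.19, -0.87, 0.96, 2.87, 1.61 and 2.64 in the order of the arrays. It was highest on marker-positive array 3 and marker-negative arrays 4 and 6, which were also the 3 highest arrays for Cxcr3. Marker-negative arrays 4 and 6 were the highest of their fraction for Ccr7, Cxcr4, Cxcr6, Xcr1 and the less bright Cx3cr1 probe. They were also the highest of their fraction for the called Ccr2 probe, at 1.62 and 0.74 (next 0.60). That probe was highest of all on marker-positive array 3. The other Ccr2 probe was highest of the marker-negative fraction on array 4 (0.73) but lowest on array 6 (-0.28). Marker-negative array 2, with the lowest leukocyte mean, was the lowest of its fraction for Ccr7, Cxcr3, Cxcr4 and Cxcr6. With the leukocyte mean as a covariate, chosen after seeing the data, the Ccr2 difference was 3.28 and passed (limma, adjusted p = 0.0292), and the Cxcr6 difference was -4.19 and passed (limma, adjusted p = 0.0484). In that fit the Cxcr3 difference was -0.55 and the Xcr1 difference -0.33, neither past the threshold.

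Marker lists of single leukocyte types differed between the fractions in opposite directions. Over all genes tested, 1.57% were called higher and 1.67% lower, the shares to set beside the calls of each list. The macrophage mean ran from 3.36 to 4.39 on the marker-positive arrays and from 0.44 to 2.95 on the marker-negative arrays. Mrc1 and Cd163 were called higher among 10 tested. Both were well above background on all 3 marker-positive arrays and on 0 marker-negative arrays. They thus passed the detection filter only through the fraction where they were high. No other macrophage marker had an unadjusted limma p under 0.05. Each of those others overlapped between the fractions, and Mertk had the opposite sign (-0.40). The monocyte mean ran from 0.55 to 1.66 against -0.45 to 0.13, with F10 and Itgam higher among 6, and the mast cell mean from 3.78 to 4.26 against 0.20 to 3.02, with Cpa3, Tpsb2 and Fcer1a higher among 7. By contrast the NK cell mean ran from 0.74 to 2.14 against 2.96 to 5.42, with Klrb1c, Gzma and Gzmb lower among 8. The T cell mean ran from -0.91 to 0.12 against 0.33 to 2.52, with Cd3d, Cd3g and Cd8a lower among 9, Cd8a being above background on no marker-positive array. Of the T cell markers not called, Lck (-2.67) and Lat (-1.70) were lower at an unadjusted limma p under 0.05. The others overlapped between the fractions: Cd3e (-0.12), Cd8b1 (-0.51), Cd5 (-0.43) and Cd4, which had the opposite sign (0.32). Ccr2, of monocytes and macrophages, thus differed in the same direction as the macrophage and monocyte lists. Cxcr6, of T cells and NK cells, differed in the same direction as the T cell and NK cell lists. The order of the marker-positive arrays matched only in part. Cxcr6 was lowest on marker-positive array 3, where the T cell and NK cell means were the highest of that fraction (0.12 and 2.14). Ccr2 was highest on marker-positive array 3, as was the monocyte mean (1.66 in that fraction), while the macrophage mean was highest on marker-positive array 1 (4.39). That match was not particular to monocytes. The dendritic cell (3.30), B cell (1.49) and general leukocyte (3.38) means were also highest of that fraction on marker-positive array 3. The neutrophil, mast cell, endothelial and epithelial means were not. The part of these cell types in the receptor differences was not tested.

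Lists of the remaining types had fewer calls at the adjusted threshold. Csf3r was higher among 5 neutrophil markers and Vwf among 7 endothelial markers. At an unadjusted limma p under 0.05, 6 of the 7 endothelial markers were higher (9.72% of all genes tested), with a median difference of 2.35. The endothelial mean was 0.94 on marker-positive array 3, within the marker-negative range of 0.72 to 1.87. The neutrophil list had 1 gene higher at that unadjusted p. The lists for dendritic cells (7 tested), B cells (6 tested), epithelial cells (7 tested) and leukocytes in general (8 tested) had 0 calls in either direction with limma. At an unadjusted p under 0.05 the leukocyte list had 1 gene higher, the B cell list 1 lower, the epithelial list 1 higher and 2 lower and the dendritic cell list 0. Of the 7 epithelial markers, 6 were well above background on all arrays but their mean was -0.49 on marker-positive array 3 and between 1.09 and 2.78 on the others.

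**Figure D3:**
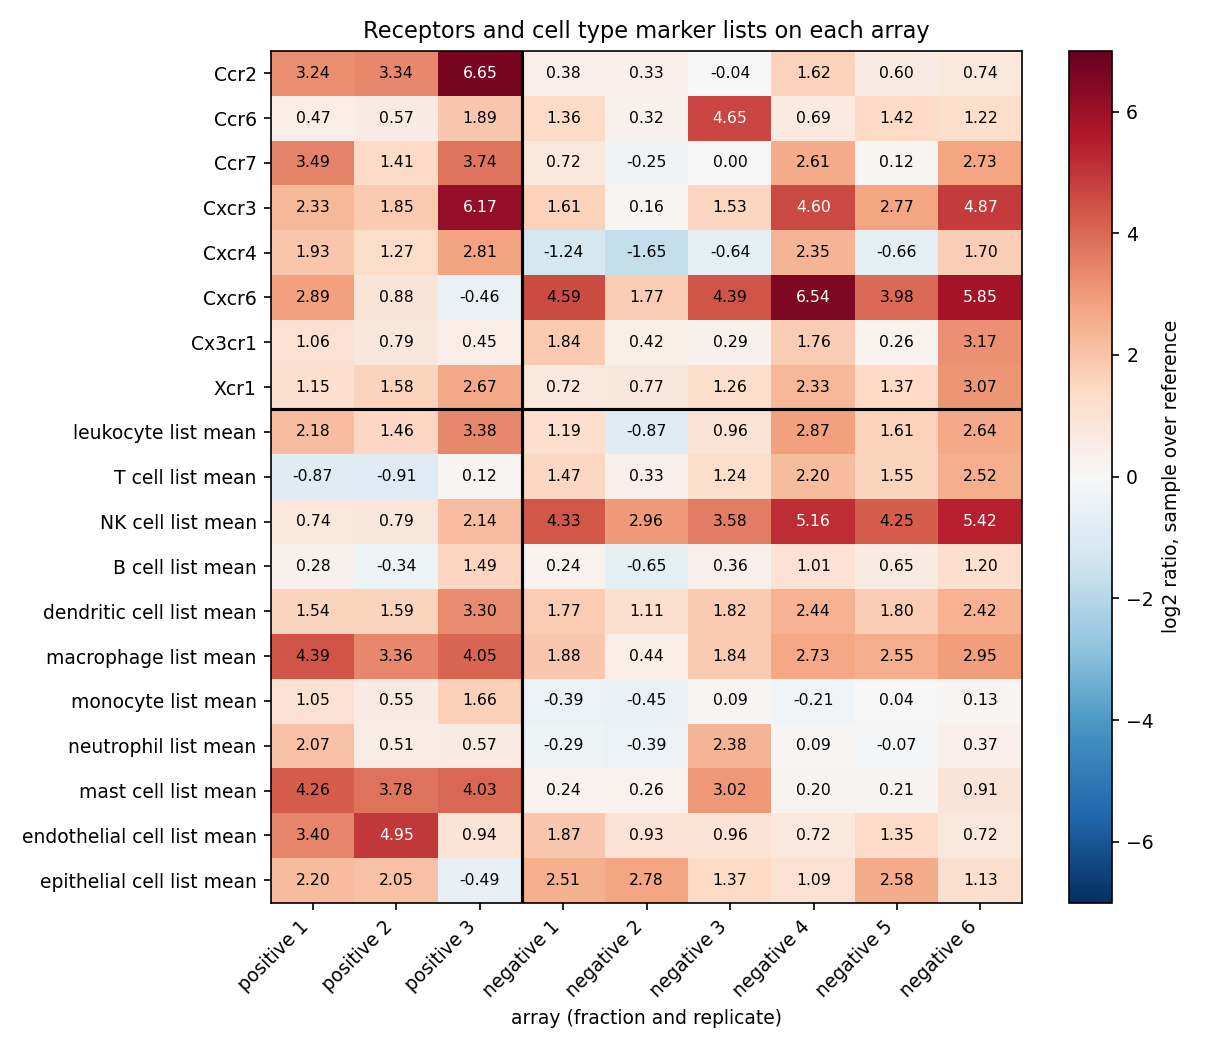
Log2 ratio of sample over reference on each array (columns, 3 marker-positive and then 6 marker-negative) for the receptors (upper rows) and for the mean of each cell type marker list (lower rows), with colour as the ratio. Macrophage, monocyte and mast cell lists were higher in the marker-positive columns and NK cell and T cell lists in the marker-negative columns.

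Among the receptors' ligands, 15 of 17 listed were tested. By limma, 3 were called higher and 0 lower, against 1.57% and 1.67% of all genes tested. At an unadjusted limma p under 0.05, 6 were higher and 2 lower (9.72% and 9.83% of all genes tested). The median difference of the ligands was 1.46, beside -0.01 over all genes tested. Of the ligands, 6 had no overlap between the fractions and were higher, against 5.14% of all genes tested. Cxcl9, a ligand of Cxcr3 that interferon-gamma induces, read 4.32, 4.57 and 6.14 on the marker-positive arrays and from 0.05 to 1.59 on the marker-negative arrays. All marker-positive arrays were clearly above, and the difference of 4.06 (SE 0.46; limma, adjusted p = 0.00243) was called with any 1 array left out. It lost the call with the scanner software's processed signals (3.43; limma, adjusted p = 0.171).

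Of the ligands of Ccr2, 1 of 3 passed. Ccl7 read 5.78, 3.37 and 2.11 on the marker-positive arrays and from -2.32 to 0.04 on the marker-negative arrays, a difference of 4.43 (SE 0.77; limma, adjusted p = 0.0166). Marker-positive array 1, and not array 3 as for Ccr2, was the highest. The Ccl7 call was lost without marker-positive array 1 (3.42; limma, adjusted p = 0.0505), without marker-positive array 2 (4.62; limma, adjusted p = 0.0602) and with the slide as a block (5.28; limma, adjusted p = 0.0773). Its other probe differed by 3.96 and was called in all 9 such fits. Ccl2 read 3.89, 1.70 and 0.22 against -2.86 to 0.01, without overlap, and just missed the threshold (3.36, SE 0.82; limma, adjusted p = 0.0578). Ccl12 read 5.04, 3.31 and 3.22 against a marker-negative median of 1.17, with overlap (2.58, SE 1.21; limma, adjusted p = 0.277).

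Ccl9, which binds Ccr1, read 3.94, 2.77 and 3.79 on the marker-positive arrays and from -2.20 to 1.38 on the marker-negative arrays. The arrays did not overlap, and the difference was 3.40 (SE 0.70; limma, adjusted p = 0.0322). The call held in 3 of the 9 fits with 1 array left out: it was lost without any 1 of the marker-positive arrays and without marker-negative array 1, 3 or 5. In those 6 fits the difference stayed between 3.18 and 3.77. It was also lost with the slide as a block (3.63; limma, adjusted p = 0.209).

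Some ligands that missed the threshold are named here after their values were seen. Cxcl12, the ligand of Cxcr4, read 0.92, 3.31 and -1.01 on the marker-positive arrays and from -5.79 to -1.15 on the marker-negative arrays (4.40, SE 1.13; limma, adjusted p = 0.0679), and its other probe differed by 1.76 with overlap. Ccl5 read -1.63, -2.95 and 1.59 against 0.66 to 4.57 (-4.10, SE 1.04; limma, adjusted p = 0.0657). Xcl1, the ligand of Xcr1 and a product of NK and CD8 T cells, read 2.73 and 1.56 on marker-positive arrays 1 and 2 but 7.42 on array 3, within the marker-negative range of 6.47 to 7.61. Cxcl16, the ligand of Cxcr6, read 5.08, 4.89 and 5.01 against 3.24 to 6.28 and differed by -0.20 (SE 0.61, 95% interval -1.55 to 1.16; limma, adjusted p = 0.906), and by 0.07 on its other probe. Marker-positive array 3 thus had the marker-positive pattern for Ccr2 and the marker-negative level for Xcl1.

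**Figure D4:**
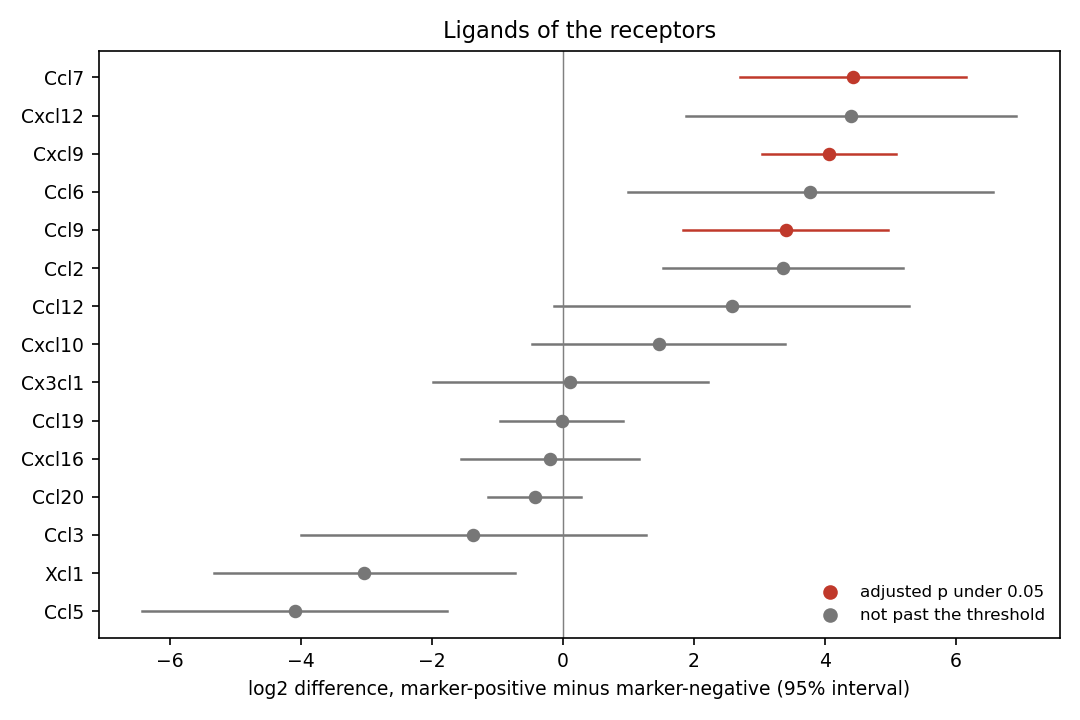
Difference between the fractions (log2, marker-positive minus marker-negative) with its 95% interval for the 15 tested ligands, coloured where the adjusted p was under 0.05. Cxcl9, Ccl7 and Ccl9 passed, and Ccl5 and Xcl1 had the lowest values.

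Of 15 further chemokine receptors, 12 were tested and 0 were called in either direction by limma on the brightest probe of each, with 3 higher and 1 lower at an unadjusted p under 0.05 (9.72% and 9.83% of all genes tested). Their differences ran from -0.54 to 2.98 with a median of 0.06. The scavenging receptors Ackr1 and Ackr3 are named after their values were seen. The brighter Ackr1 probe read 4.89, 5.46 and 0.88 on the marker-positive arrays and from 0.38 to 1.07 on the marker-negative arrays, so that marker-positive array 3 lay within their range (2.98, SE 0.84; limma, adjusted p = 0.0896). The other Ackr1 probe read 3.40, 4.05 and 1.36 against 0.24 to 0.94, without overlap, and was called higher (2.37, SE 0.50; limma, adjusted p = 0.0355). That call held without marker-positive array 3 (3.15) or marker-negative array 3 (2.44) and was lost without any 1 of the other 7 arrays, where the difference stayed between 1.81 and 2.42. Ackr3, another receptor for Cxcl12, read 3.22, 3.39 and 1.02 against -0.52 to 1.47 (2.15, SE 0.58; limma, adjusted p = 0.0777). Ackr1 and Ackr3 were high on marker-positive arrays 1 and 2, where the endothelial marker mean was 3.40 and 4.95, beside 0.94 on marker-positive array 3; its part in these ratios was not tested.

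The genes that carry the signal from the receptor inside the cell had 0 of 23 tested called in either direction by limma, with 5 higher and 2 lower at an unadjusted p under 0.05 (9.72% and 9.83% of all genes tested) and a median difference of 0.52. The 6 with the smallest adjusted p-values were Rgs18, Arrb1, Pik3r5, Gnai2, Rgs1 and Pik3cg. Rgs18, a regulator that shortens G protein signals, differed by 2.18 (SE 0.62; limma, adjusted p = 0.0938), and beta-arrestin 1 (Arrb1), which takes receptors off the surface, by 1.13 (SE 0.33; limma, adjusted p = 0.0965). The other Arrb1 probe had the opposite sign, at -0.33 (SE 0.63; limma, adjusted p = 0.832). The subunits of the PI3-kinase that receptors switch on, Pik3r5 and Pik3cg, differed by 2.08 and 1.49, and the inhibitory G protein Gnai2 by 1.05, while the other probe of Pik3r5, above background on 3 arrays, differed by -0.09. Rgs1, a regulator known in activated lymphocytes, had the opposite sign, at -2.17 (SE 0.88; limma, adjusted p = 0.214).

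The authors' deposited table gives the same probes for the comparison of stem with non-stem cells, with the sign of its log2 difference turned the other way from its fold column. Read as stem over non-stem, the authors' deposited table lists 3.80 for the Ccr2 probe (adjusted p = 0.0180) and 1.94 for its other probe (adjusted p = 0.0598). For the brighter Cxcr4 probe the authors' deposited table lists 2.03 with an adjusted p of 0.0417, so that Cxcr4 passed there and did not pass in the limma fit above, at the same size of difference. The authors' deposited table lists -3.42 for Cxcr6 (adjusted p = 0.0693), 1.89 for Ccr7 (adjusted p = 0.146) and 0.84 for Cxcr3 (adjusted p = 0.424). The model behind those p-values is not stated in the sources used here.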

How the data were processed

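The receptors and the gene and marker lists were chosen with earlier results of these data known. Each deposited scanner file lists a mean and a background intensity per spot and dye, written by Agilent Feature Extraction 10.7.3.1 per the file headers (10.7 per the submitters' processing notes). The authors' deposited table gives log2 differences, p-values and adjusted p-values, a score and a signed fold; how it was normalized is not stated in those sources.

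In R 4.3.3, limma 3.58.1 corrected the mean intensities (normexp, median local background, offset 50) and normalized them by loess within each array. Spots of a probe were averaged. Log2 ratios of Cy5 over Cy3 were compared (3 against 6 arrays) with lmFit and eBayes (trend, robust), two-sided, with Benjamini-Hochberg adjustment over 28330 probes. In simulated data, 54% of probes changed by a log2 difference of 2 and 76% of those changed by 3 were recovered. The simulated noise was independent with the same spread on each array, unlike these data, where marker-positive array 3 stood apart. These shares may therefore not hold here. The brightest tested probe, by mean intensity, stood for a gene. Names came from matching RefSeq accessions, symbols and synonyms in a table of GRCm38.p6. The number of arrays limits the precision. No dye swap was available, and a dye effect common to all arrays cancels between the fractions.

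Named were all receptor probes, the called genes of each list, the ligands of a called receptor, the 6 signalling genes with the smallest adjusted p and the 3 genes nearest to a called receptor. Any others are said to have been chosen after their values were seen. Alternatives covered background correction, offset, centring, probe choice, detection filter, array weights, slide and each array left out. A listed gene counted among the further receptors is not reported here.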

Additional observations from a re-analysis of the deposited data

Results flagged for a closer look

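Over 30 sets of 6 marker-negative arrays (13 receptor probes, 3 called ligands and 14 list means), 5 held an array far from the rest. Chance gives about 1 in 20 for a single set. The sets share the same 6 arrays and are not independent, so the count is not read as an excess. The other Ccr2 probe read 0.73 on marker-negative array 4, the next value being 0.10. Ccr6 read 4.65 on marker-negative array 3, the next being 1.42. On that same array the neutrophil marker mean was 2.38 (next 0.37) and the mast cell marker mean 3.02 (next 0.91). The mean of the further chemokine receptors was 0.54 on marker-negative array 2, below the next value of 1.12.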

How the results depend on the processing

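No paired analysis by replicate number was possible because the labels give none; the slide was the block fitted. Of 183 receptor differences recomputed under an alternative, 176 kept their direction and their side of the threshold, and of 230 recomputed counts of calls 189 stayed within 1.5 times. With array weights 2200 genes were higher and 2264 lower, with median centring 141 and 85, and with the slide as a fixed block 128 and 20; leaving out 1 array gave 98 (without marker-positive array 1) to 933 (without marker-positive array 3) higher and 87 (without marker-positive array 2) to 498 (without marker-positive array 3) lower. The count higher also moved by over 1.5 times without marker-positive array 2 or marker-negative array 1, 2, 5 or 6.

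For Ccr2 the difference was 5.90 with processed signals and 2.57 with the slide block, and 0 receptors were called higher in both. With detection on at least 6 arrays Ccr2 was not tested and 0 were higher. With the leukocyte mean as a covariate, chosen after seeing the data, 1 receptor was lower, Cxcr6 (-4.19), while Cxcr3 (-0.55) and Xcr1 (-0.33) reversed. Without marker-positive array 3 Cxcr3 (-0.50, up to 1.66 without another array) and Xcr1 (-0.22, up to 0.54) reversed too.

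Further receptors called were 2 higher and 1 lower with array weights, 1 higher with the slide block and 0 to 2 higher with 1 array left out. Ligands called were 8 higher and 2 lower with array weights, 1 and 1 with the slide block, 1 lower with Cy5 alone and 2 lower with the leukocyte covariate; with 1 array left out they were 1 to 4 higher and 0 to 2 lower, and without marker-positive array 1 or 2 only 1 was higher. Signalling genes called were 5 higher with array weights, 2 lower with the covariate, and 0 to 1 in either direction with 1 array left out. The causes were not tested. Ccr1 and the less bright Xcr1 probe, above background on 1 and 2 arrays, were too dim to be tested.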
